A study of Mus musculus with 4 samples.

Results

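The genes described here are 9 members of the CXC chemokine system, chosen by name from the 32285 genes listed in the files. Of these, 6 encode ligands (Cxcl1, Cxcl2, Cxcl5, Cxcl9, Cxcl10 and Cxcl16) and 3 encode receptors (Cxcr2, Cxcr3 and Cxcr6). Their transcripts were counted in mononuclear cells of quadriceps and diaphragm muscle from WT and mdx5cv mice aged 14 weeks. The mdx5cv mouse carries a point mutation in Dmd, the dystrophin gene, and is a model of Duchenne muscular dystrophy. Each of the 4 groups (quadriceps and diaphragm of either genotype) was 1 library made from cells that had been frozen and thawed, while the number of animals behind a library is not in the labels. No group had a replicate, so no p-value was computed, and every interval below is a 95% interval that covers counting error only.

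Chemokines are small secreted proteins that draw leukocytes along a gradient by engaging receptors coupled to G proteins. CXCL1, CXCL2 and CXCL5 bind CXCR2, which neutrophils carry, and their genes are classic targets of NF-kappaB downstream of interleukin-1, TNF and interleukin-17. CXCL9 and CXCL10 are induced by interferons and bind CXCR3 on activated T cells and natural killer cells, while CXCL16 is made as a membrane-bound protein that the proteases ADAM10 and ADAM17 can release, and it binds CXCR6.

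Barcodes with at least 1000 unique molecular identifiers (UMIs, which count captured transcripts) and at least 500 genes, and with at most 15% of UMIs from mitochondrial genes, were kept as cells. This left 4911 barcodes in WT quadriceps, 7516 in WT diaphragm, 8334 in mdx5cv quadriceps and 7402 in mdx5cv diaphragm. The median depths were 2055, 4355.5, 5328.5 and 4894.5 UMIs in that order. Each pair of libraries shared 5 to 17 kept barcodes, against 5.35 to 9.22 expected if barcodes were drawn independently. Cells were assigned to 12 lineages by marker genes that did not include the 9 chemokine genes, and a level is given as CPM, the UMIs of a gene per 1000000 UMIs summed over the cells of a gate. Cells are called by the name of their gate, which rests on these transcripts and not on a sort. The makeup of the libraries differed widely: endothelial cells were 54.6% of WT quadriceps, fibroblasts numbered 6278 of the 7516 barcodes in WT diaphragm, and myeloid cells numbered 390, 248, 5317 and 2437 in WT quadriceps, in WT diaphragm, in quadriceps of mdx5cv and in its diaphragm, which is the order of every set of 4 values below. Dmd itself was at 168, 74.0, 46.5 and 33.4 CPM in muscle stem cells, but tags from the transcript's end do not read the point mutation and so do not check the genotype.

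The ligand genes lie in clusters, and the promoters of 4 of them are shown because they carry a recognition motif of NF-kappaB. On GRCm38, Cxcl5 (chr5:90759360-90761624), Cxcl1 (chr5:90891241-90893115) and Cxcl2 (chr5:90903871-90905938) are on the plus strand of chromosome 5, and Cxcl9 (chr5:92321347-92328079) and Cxcl10 (chr5:92346638-92348889) are on its minus strand. Cxcl16 is at chr11:70453983-70459984 on the minus strand. The receptor genes are at chr1:74153989-74161246 (Cxcr2, plus strand), chrX:101731535-101734269 (Cxcr3, minus strand) and chr9:123806475-123811760 (Cxcr6, plus strand). All 9 are annotated as protein coding. Cxcl10 overlaps Art3, Cxcl16 overlaps Zmynd15 and Cxcr6 overlaps Fyco1, each on the opposite strand, and no source used here says whether the counting used strand. Cxcl2 and its neighbour Cxcl3 share 73 windows of 98 bases, the read length, so their counts are uncertain where reads fell there. The 250 bases upstream of each start were taken from RefSeq (GRCm38.p6), whose table held 7 of the 9 genes, without Cxcl5 and Cxcl16. Capitals mark matches on either strand to the NF-kappaB motif (GGGA and CC with any 4 bases between them) or to the interferon-stimulated response element (ISRE, GAAA and GAAA with any 2 bases between them), and each line runs 5′ to 3′ on the gene's strand.
Cxcl1, chr5:90890995-90891244, plus strand: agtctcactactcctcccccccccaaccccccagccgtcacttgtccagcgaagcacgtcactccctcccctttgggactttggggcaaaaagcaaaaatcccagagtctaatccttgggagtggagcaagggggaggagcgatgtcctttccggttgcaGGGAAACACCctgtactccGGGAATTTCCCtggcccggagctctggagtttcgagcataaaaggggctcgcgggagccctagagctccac
Cxcl2, chr5:90903649-90903898, plus strand: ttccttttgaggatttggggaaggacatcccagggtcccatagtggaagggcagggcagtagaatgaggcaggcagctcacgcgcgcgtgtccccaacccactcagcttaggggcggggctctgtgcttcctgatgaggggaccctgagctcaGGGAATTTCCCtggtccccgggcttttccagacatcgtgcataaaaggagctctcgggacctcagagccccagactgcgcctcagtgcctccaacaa
Cxcl9, chr5:92328080-92328329, minus strand: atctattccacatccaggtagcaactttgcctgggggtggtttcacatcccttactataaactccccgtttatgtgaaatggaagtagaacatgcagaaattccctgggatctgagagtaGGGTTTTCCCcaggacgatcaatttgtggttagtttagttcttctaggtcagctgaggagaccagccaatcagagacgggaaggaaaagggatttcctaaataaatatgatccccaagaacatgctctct
Cxcl10, chr5:92348890-92349139, minus strand: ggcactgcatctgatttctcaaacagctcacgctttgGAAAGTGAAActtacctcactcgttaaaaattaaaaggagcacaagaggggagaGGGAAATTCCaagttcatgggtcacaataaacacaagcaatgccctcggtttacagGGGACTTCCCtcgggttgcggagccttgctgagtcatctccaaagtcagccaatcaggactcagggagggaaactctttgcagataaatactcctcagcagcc

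These 4 are the ligand promoters in the table and are shown because each holds an NF-kappaB match, so nothing is read from their number. Over all 27025 promoters of this length, 17.33% hold one. Cxcl1 has matches 90 to 81 and 71 to 62 bases before the start, the second of which also reads as a match on the other strand 1 base on, and the Cxcl2 promoter carries the same GGGAATTTCC 97 to 88 bases before the start. Cxcl10 has 2 NF-kappaB matches, 159 to 150 and 103 to 94 bases before the start, and is alone among the 7 promoters in holding an ISRE match (213 to 204 bases before the start; 3.038% of promoters hold one). The gamma-activated sequence TTCNNNGAA, found in 7.179% of promoters, was matched in none of the 7. The promoters of Cxcr2, Cxcr3 and Cxcr6 hold no match to any of these 3 motifs. A match describes letters only, and the files hold no measurement of factor binding.

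The question each pair of libraries can address is which cells held each transcript in WT and dystrophic muscle, and how the level within a cell type differed. The transcripts in kept cells divided by source (plot of UMI sources). Among kept cells, most UMIs of Cxcl1 and Cxcl5, which recruit neutrophils, were in fibroblasts, and most UMIs of Cxcl2 were in myeloid cells. Kept cells did not hold all of these transcripts: of all Cxcl2 UMIs they held 25.6%, 77.1%, 73.9% and 81.4%, and in WT quadriceps 1306 of 2010 Cxcl2 UMIs (65.0%) lay in barcodes of under 10 UMIs, which belong to no gate. For Cxcl5 they held 2.43%, 17.3%, 75.7% and 63.6%, so the source of most Cxcl5 in the WT libraries is not known, and for Cxcl1 they held 72.1% to 91.7%. The main gate of the interferon-inducible Cxcl9 differed between libraries: endothelial cells in WT quadriceps, fibroblasts in both diaphragms, and myeloid cells with fibroblasts in mdx5cv quadriceps. Since a share of UMIs depends on how many cells of each kind were loaded, shares describe the libraries and not the level in a cell.

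**Figure D1:**
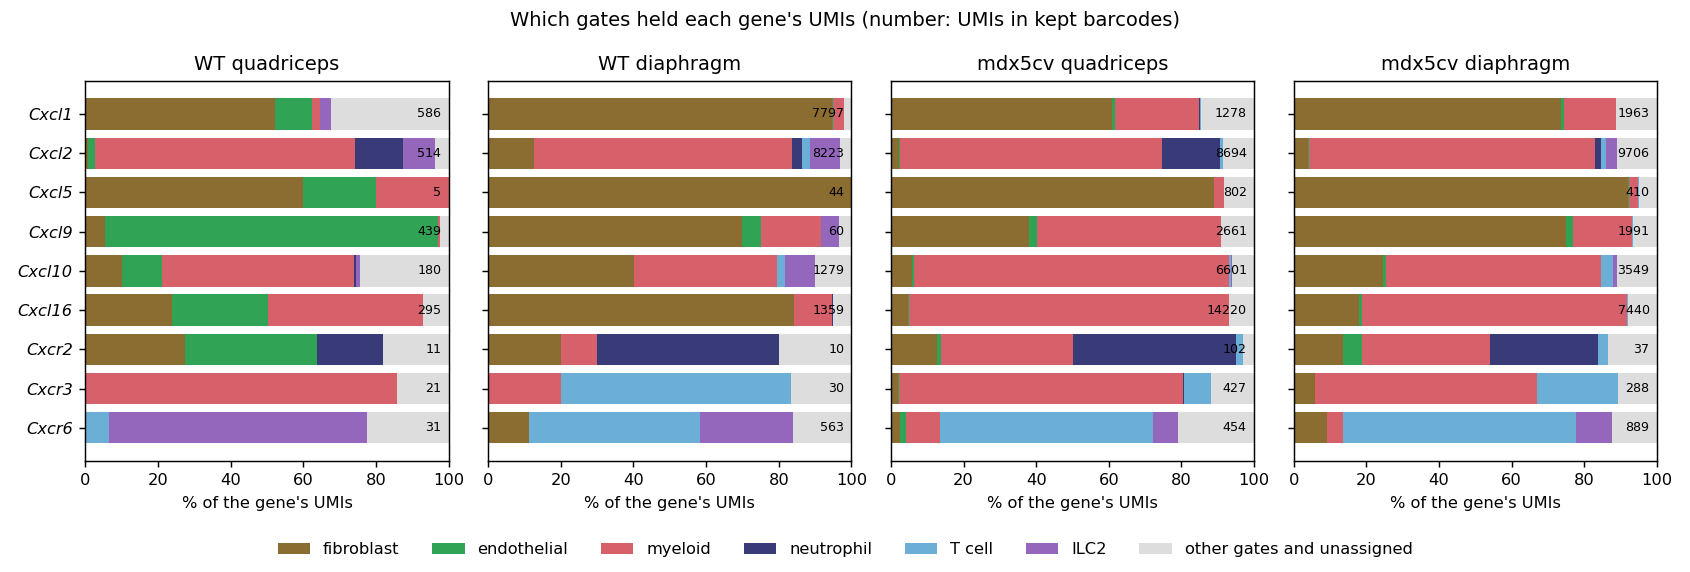
For each library (panel) and gene (bar), the percentage of the gene's UMIs in kept barcodes that fell in each gate (colours, with other gates and unassigned barcodes in grey); the number on a bar is the gene's UMI total. Fibroblasts held 52.0% to 94.7% of Cxcl1 UMIs, myeloid cells 71.2% to 78.9% of Cxcl2 UMIs, and endothelial cells 91.6% of Cxcl9 UMIs in WT quadriceps.

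Cxcl1 encodes the chemokine KC, a ligand of CXCR2. Fibroblasts held 52.0%, 94.7%, 60.9% and 73.7% of its 586, 7797, 1278 and 1963 UMIs in kept cells. Its level in fibroblasts was 85.3, 242, 71.4 and 76.3 CPM, and it was detected in 11.3%, 31.7%, 11.0% and 15.1% of them. WT diaphragm stood above the other 3 libraries, which lay close together. The mdx5cv level was 0.837 times that of WT in quadriceps (interval 0.732 to 0.959), a difference too small to be called by the rule used throughout, which asks for a fold of at least 1.5, an interval that leaves out 1 and at least 5 CPM in 1 of the 2 libraries. In diaphragm the WT level was 3.17 times that of mdx5cv. The WT diaphragm fibroblasts also had the highest level of a list of 12 immediate early and heat shock genes that dissociation induces, at 22337 CPM against 6919, 4200 and 6402 CPM. Among fibroblasts at or below the pooled median of that list, Cxcl1 was at 27.0, 68.1, 49.0 and 48.1 CPM. The diaphragm difference was smaller there, with WT at 1.42 times mdx5cv, which is under 1.5-fold and so was not called. In quadriceps the mdx5cv level was 1.82 times that of WT among these low-stress fibroblasts. Muscle stem cells had 141, 215, 22.6 and 21.2 CPM of Cxcl1, with WT above mdx5cv 6.21-fold in quadriceps and 10.1-fold in diaphragm, where 11.3% and 7.59% of all genes in that gate were called lower in mdx5cv. The dissociation list moved with it in that gate, at 51893, 49553, 10976 and 10179 CPM. Among muscle stem cells low in the list Cxcl1 was at 28.2, 30.2, 10.2 and 11.3 CPM, from 5, 2, 15 and 16 UMIs.

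Cxcl2 encodes MIP-2, a ligand of CXCR2 that phagocytes make early after injury. Myeloid cells held 71.8%, 71.2%, 72.2% and 78.9% of its 514, 8223, 8694 and 9706 UMIs in kept cells. In the myeloid gate its level was 217, 4335, 176 and 464 CPM, with 15.1%, 52.0%, 14.0% and 21.5% of cells positive. The WT diaphragm was far above the other 3 libraries, by 9.33-fold over mdx5cv diaphragm (ratio of mdx5cv to WT 0.107, interval 0.104 to 0.111), while the quadriceps pair was not called (ratio 0.811). The macrophage subset, whose Cxcl2 and Cxcl16 values below are calls in a gate where 14.8% and 11.9% of genes were called higher and lower in quadriceps and 16% and 8.89% in diaphragm, showed the same high value in WT diaphragm (403, 6875, 159 and 531 CPM), and there WT quadriceps was also above mdx5cv quadriceps, 2.53-fold. In mdx5cv muscle, diaphragm myeloid cells had 2.64 times the Cxcl2 of quadriceps myeloid cells (interval 2.55 to 2.73). The dissociation list was at 16111, 20330, 8806 and 12619 CPM in the 4 myeloid gates. Among the 138, 61, 3062 and 935 myeloid barcodes low in that list, Cxcl2 was at 101, 4414, 74.6 and 174 CPM, and WT diaphragm was 25.3-fold above mdx5cv diaphragm.

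Fibroblasts gave a different picture for Cxcl2. They had 1.12, 33.7, 17.9 and 19.8 CPM, from 4, 1031, 195 and 376 UMIs, and WT quadriceps was the low library. The mdx5cv level was 16.0 times that of WT in quadriceps (interval 6.15 to 59.3) but 0.588 times in diaphragm (0.521 to 0.663). The diaphragm difference was no longer called at no more than 5% mitochondrial UMIs, where the log2 ratio was -0.04, without barcodes holding 3 or more markers of a second lineage (-0.30), or thinned to 1000 UMIs per cell (-0.46). On the log2 scale the genotype difference was lower in diaphragm than in quadriceps by 4.77 (interval -6.20 to -3.33), which compares 4 libraries and not animals. Neutrophils, though few, had the densest signal of the gates described here. Of them, 4 of 4, 9 of 10, 48 of 52 and 13 of 16 held Cxcl2 UMIs, against 1 of 230 and 2 of 478 B cells in WT and mdx5cv diaphragm. Type 2 innate lymphoid cells (ILC2), which are tissue-resident lymphocytes, were positive in 56 of 155 cells in WT diaphragm and 27 of 81 in mdx5cv diaphragm, but in 1 of 32 in mdx5cv quadriceps and 2 of 14 in WT quadriceps.

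Cxcl5 encodes LIX, a ligand of CXCR2 made mostly by stromal and epithelial cells. Fibroblasts held 60%, 100%, 89.0% and 92.2% of its 5, 44, 802 and 410 UMIs in kept cells. Their level was 0.839, 1.44, 65.5 and 19.95 CPM. Both mdx5cv libraries were above both WT libraries, 78.1-fold in quadriceps (interval 26.6 to 380, resting on 3 WT UMIs) and 13.9-fold in diaphragm (10.1 to 19.4). The mdx5cv quadriceps level exceeded that of mdx5cv diaphragm 3.28-fold. This signal was concentrated in a few cells: 62 of 1538 and 85 of 3108 mdx5cv fibroblasts held any, and the 10 highest cells held 64.7% and 61.9% of the UMIs. Within mdx5cv, fibroblasts lacking both Dpp4 and Pi16, markers of an adventitial progenitor state, had 84.8 and 38.0 CPM and those with either had 27.7 and 13.6 CPM. The WT fibroblasts without Dpp4 and Pi16 had 1.85 and 4.95 CPM, so the genotype difference was present within that fraction too. Fibroblasts with 3 or more of 8 tenocyte markers had 4 and 1 Cxcl5 UMIs in the mdx5cv libraries. Cells with Cxcl5 often had Cxcl1 as well, 32 of 62 (51.6%, against 11.0% of the gate) in mdx5cv quadriceps and 30 of 85 (35.3%, against 15.1%) in mdx5cv diaphragm, but their median depths, 11949 and 7576 UMIs, were above the 5288 and 4916 of the gate.

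**Figure D2:**
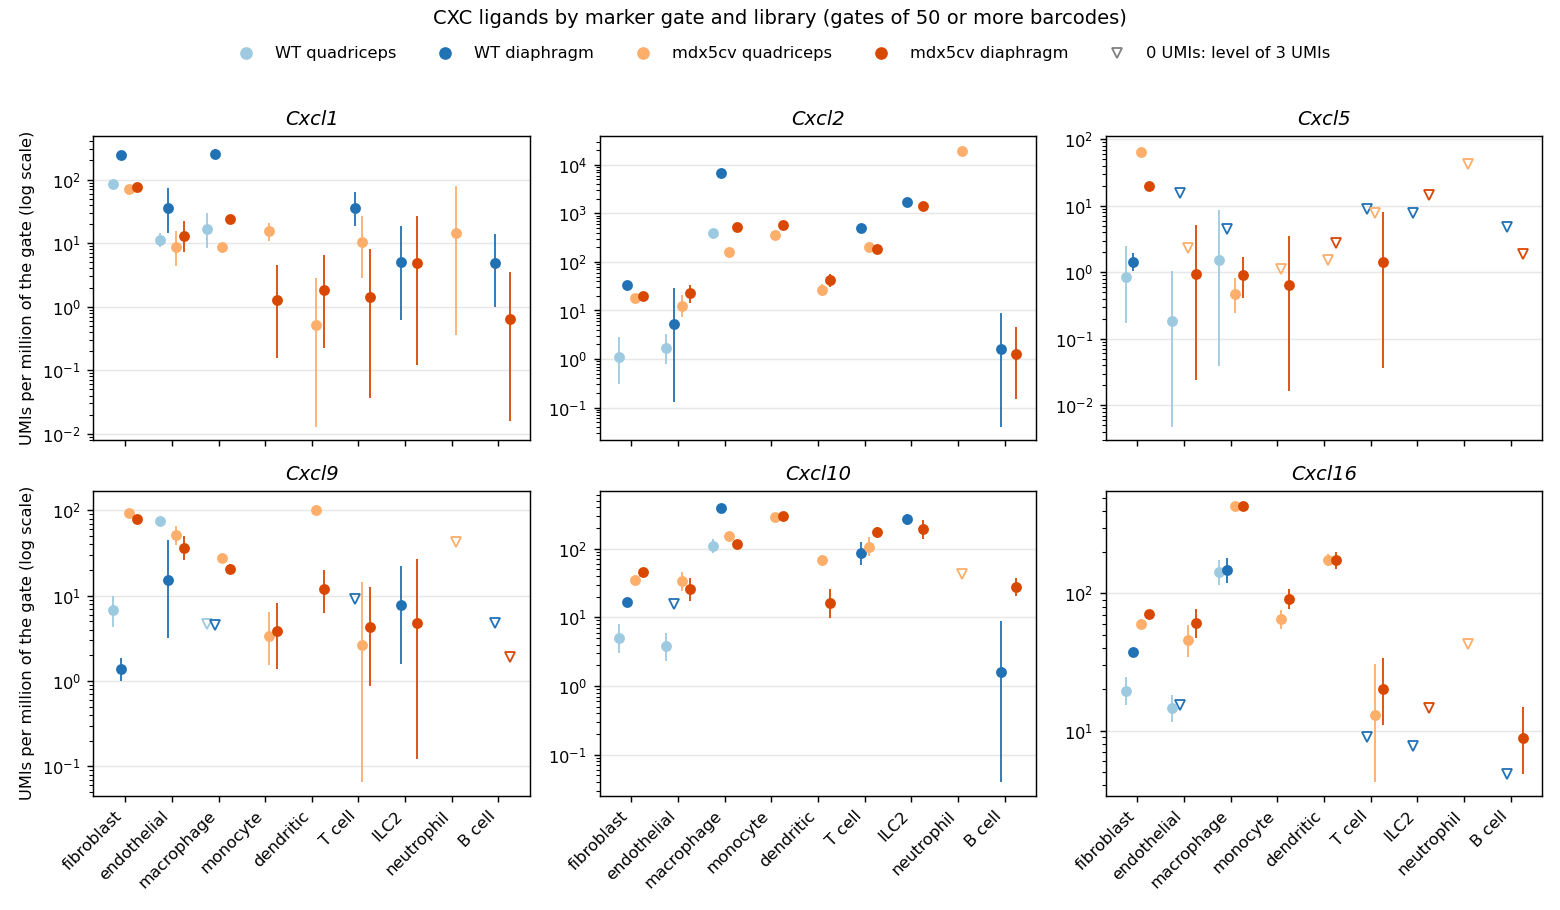
Level of each ligand (panel) by gate of 50 or more barcodes and by library (colours), in CPM on a log axis, with exact 95% Poisson intervals that cover counting error only; an open triangle stands for 0 UMIs and is drawn at the level of 3 UMIs. Cxcl5 in fibroblasts was 0.839 and 1.44 CPM in WT and 65.5 and 19.95 CPM in mdx5cv, and Cxcl2 in macrophages was highest in WT diaphragm at 6875 CPM.

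Cxcl9 encodes MIG, which interferon-gamma induces and which binds CXCR3. In fibroblasts its level was 6.71, 1.38, 92.6 and 78.9 CPM, with 1.36%, 0.446%, 12.5% and 7.40% of cells positive. Both mdx5cv libraries were above both WT libraries, by 13.8-fold in quadriceps (interval 9.22 to 21.6) and 57.4-fold in diaphragm (42.2 to 79.9). The 10 highest cells held 39.3% and 43.4% of the fibroblast UMIs in mdx5cv, beside 64.7% and 61.9% for Cxcl5. Fibroblasts with Dpp4 or Pi16 had 76.3 and 93.3 CPM in mdx5cv quadriceps and diaphragm and those without had 101 and 37.8 CPM, an order that was opposite in the 2 muscles. In WT, the fraction with these genes had 7.69 and 1.05 CPM and the fraction without had 5.54 and 5.93 CPM.

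Endothelial cells held 402 of the 439 Cxcl9 UMIs in kept cells of WT quadriceps. In this gate the level was 75.7, 15.5, 51.0 and 36.5 CPM, from 402, 3, 65 and 39 UMIs. WT quadriceps was thus the highest library, and mdx5cv quadriceps was at 0.674 times its level (interval 0.511 to 0.878), which was not called. WT diaphragm had only 78 endothelial barcodes, and its 3 UMIs give a wide interval. In WT quadriceps, 305 of 2540 endothelial cells with fewer than 3 venous markers (12.01%) and 10 of 139 with 3 or more (7.19%) held Cxcl9 UMIs.

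Myeloid Cxcl9 was 1.18, 7.40, 37.6 and 19.5 CPM, from 2, 10, 1342 and 322 UMIs. The mdx5cv level was 32.0 times that of WT in quadriceps (interval 8.83 to 264) and 2.64 times in diaphragm (1.42 to 5.56). Without barcodes holding 3 or more markers of a second lineage, the diaphragm ratio turned to -0.15 on the log2 scale and was not called. It was also not called at no more than 5% mitochondrial UMIs (0.51) or thinned to 1000 UMIs per cell (1.56). Macrophages had 0 UMIs in either WT library and 703 and 204 in mdx5cv. With each WT library set to 3 UMIs, mdx5cv was 6.01-fold higher in quadriceps and 4.51-fold higher in diaphragm. The macrophage subset was not recomputed under the alternatives, among them the 3 that ended the diaphragm call of the whole myeloid gate. Few cells carried the myeloid signal: 2.54% and 2.22% of mdx5cv myeloid cells were positive, and 10 cells held 82.0% of the UMIs in diaphragm. In mdx5cv quadriceps, 42 of 135 Cxcl9-positive myeloid cells also held Cxcl10, or 31.1% against 13.1% of the gate.

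Cxcl10 encodes IP-10, a CXCR3 ligand that both type I interferon and interferon-gamma induce. Myeloid cells held 52.8%, 39.2%, 86.7% and 59.3% of its UMIs in kept cells and had 55.9, 372, 161 and 128 CPM. The order of genotypes was opposite in the 2 muscles: mdx5cv was 2.87 times WT in quadriceps (interval 2.34 to 3.55), and WT was 2.91 times mdx5cv in diaphragm. The log2 difference between these contrasts was -3.06 (interval -3.39 to -2.74), diaphragm minus quadriceps, again across single libraries. Among barcodes low in the dissociation list, the 4 levels were 11.0, 558, 153 and 92.5 CPM, with WT diaphragm still the highest. Within macrophages the quadriceps difference was smaller, 111 against 151 CPM, and was not called. Monocytes, the blood-derived precursors of many muscle macrophages, had 284 and 296 CPM in the mdx5cv libraries. In fibroblasts Cxcl10 was at 5.03, 16.9, 34.5 and 46.0 CPM, and mdx5cv was above WT in both muscles, 6.85-fold (interval 4.28 to 11.7; 19.0-fold when thinned to 1000 UMIs per cell) and 2.73-fold (2.45 to 3.05).

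Cxcl16 encodes the membrane-anchored ligand of CXCR6. Myeloid cells had 74.2, 107, 351 and 329 CPM, and 23.6%, 35.1%, 64.6% and 65.3% of them were positive. The mdx5cv libraries lay close together and both were above both WT libraries, 4.73-fold in quadriceps (interval 3.97 to 5.69) and 3.06-fold in diaphragm (2.60 to 3.64). In macrophages alone the levels were 143, 148, 432 and 431 CPM, 3.02-fold and 2.91-fold higher in mdx5cv, and 80.0% and 80.7% of mdx5cv macrophages held the transcript. The ratio of mdx5cv diaphragm to mdx5cv quadriceps in macrophages was 0.997 (interval 0.962 to 1.03). Monocytes of the same libraries had 64.7 and 90.8 CPM and dendritic cells had 175 in both.

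The stroma showed the same direction for Cxcl16. Fibroblasts had 19.6, 37.4, 60.2 and 70.6 CPM, 3.08-fold higher in mdx5cv quadriceps and 1.89-fold higher in mdx5cv diaphragm (interval 1.74 to 2.04), and in mdx5cv the 10 highest cells held only 13.4% and 5.61% of the UMIs. Mesothelial cells, which line the diaphragm, were positive in 44.0% of WT and 58.7% of mdx5cv cells. In B cells, taken as a gate in which these ligands should be scarce, Cxcl16 was found in 0 of 230 WT and 1.26% of 478 mdx5cv diaphragm cells at median depths of 2456.5 and 2930.5 UMIs. The count of 0 allows, by counting error only, up to 3 UMIs in that gate.

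Counted over all 9 genes, the fibroblast gate had 6 past 5 CPM in quadriceps, of which 5 were called higher in mdx5cv and 0 lower. Over all 10988 genes tested there, 19.7% were called higher and 14.8% lower. In diaphragm, 4 of 6 were higher (Cxcl5, Cxcl9, Cxcl10 and Cxcl16) and 2 lower (Cxcl1 and Cxcl2), where 12.2% of all genes were called higher and 10.3% lower. Of the 2 lower, Cxcl1 was not called among low-stress barcodes, and Cxcl2 was not called under 3 of the alternatives. The median log2 ratio of the 6 ligands was 3.28 and 1.18, beside 0.06 and 0.07 over all genes tested. In the myeloid gate of quadriceps 3 of 6 were higher and 0 lower, beside 22.7% and 10.2% of all genes. The myeloid gate of diaphragm had 3 higher and 3 lower, beside 20.8% and 8.68% of all genes. Cxcl9, 1 of the 3 higher there, was lost under 3 of the alternatives, given with its values above. In the endothelial gate of quadriceps 4 of 6 were higher (Cxcl2, Cxcl10, Cxcl16 and Cxcr6) and 0 lower, where 18.3% of all genes were called higher and 7.18% lower. In that of diaphragm 2 of 5 were higher (Cxcl10 and Cxcl16) and 0 lower, where the shares over all genes were 4.75% and 5.87%. Cxcr6 there rests on 7 UMIs in mdx5cv quadriceps and 0 in WT. Myeloid markers moved with the endothelial values. All 10 had UMIs in 3 of the 4 endothelial gates and 8 were at 0 in WT diaphragm, and their summed level was 142, 25.8, 712 and 335 CPM, against 22742 to 29193 CPM in the myeloid gates. In fibroblasts all 10 had UMIs and summed to 362, 205, 702 and 627 CPM. Without barcodes holding 3 or more markers of a second lineage, the endothelial quadriceps calls were Cxcl10 and Cxcl16, and the 5 fibroblast calls higher in quadriceps and 4 in diaphragm numbered 5 and 4 again, while the 2 calls lower in diaphragm fibroblasts became 1 (Cxcl1).

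The direct comparison of muscles differed between WT and mdx5cv. The dissociation list was higher in WT diaphragm than in WT quadriceps, at 22337 against 6919 CPM in fibroblasts and 20330 against 16111 CPM in myeloid cells. The comparison of WT muscles was not recomputed under the alternatives. In WT fibroblasts, 4 of 5 genes past 5 CPM were higher in diaphragm and 1 lower, beside 6.02% and 14.8% of all genes. In mdx5cv fibroblasts 0 were higher and 1, Cxcl5, was lower in diaphragm, beside 4.22% and 13.8% of all genes. In WT myeloid cells Cxcl1 was 23.2-fold, Cxcl2 19.95-fold, Cxcl10 6.64-fold and Cxcl9 6.29-fold higher in diaphragm and 0 were lower, beside 5.87% and 9.95% of all genes. The Cxcl9 ratio rests on 2 positive cells in either WT myeloid gate, and the Cxcl1 ratio on 6 in quadriceps and 28 in diaphragm. In mdx5cv myeloid cells Cxcl1 and Cxcl2 were higher in diaphragm, by 2.05-fold and 2.64-fold, and Cxcl9 was lower, beside 2.11% and 5.71% of all genes. The plot of ratios shows that Cxcl5, Cxcl9, Cxcl10 and Cxcl16 in fibroblasts had the same direction in both muscles.

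**Figure D3:**
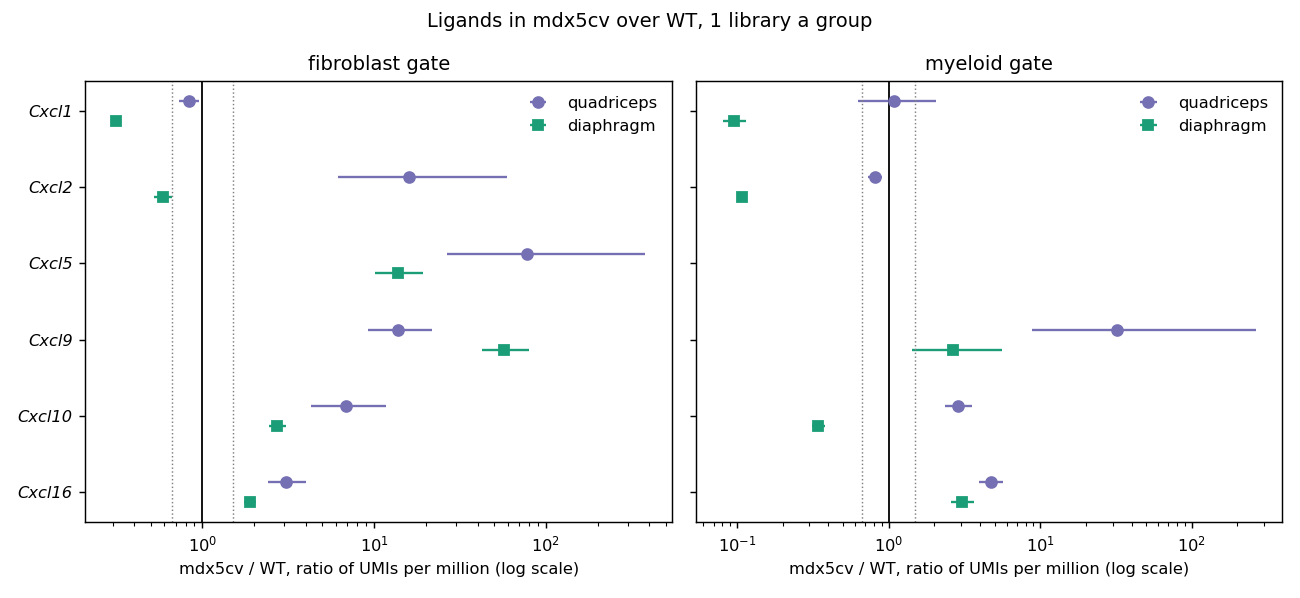
Ratio of mdx5cv to WT for ligands past 5 CPM in the fibroblast and myeloid gates, on a log axis, with quadriceps as purple circles and diaphragm as green squares; bars are exact 95% intervals that cover counting error only, the solid line marks equal levels and the dotted lines a 1.5-fold difference either way. Fibroblast Cxcl2 and myeloid Cxcl10 lie above 1 in quadriceps (16.0 and 2.87) and below 1 in diaphragm.

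Cxcr2 encodes the receptor for the neutrophil-attracting ligands. It was scarce, with 11, 10, 102 and 37 UMIs in the kept cells of the 4 libraries, of which neutrophils held 18.2%, 50%, 45.1% and 29.7%. Over all barcodes the libraries had 23, 25, 161 and 58 Cxcr2 UMIs, so kept cells held 47.8%, 40%, 63.4% and 63.8%. In mdx5cv quadriceps Cxcr2 was at 11.6 CPM in barcodes of over 100 and under 1000 UMIs, against 1.84 CPM in kept cells. It was detected in 2 of 4, 4 of 10, 27 of 52 and 9 of 16 neutrophils, and in 0 of 230 and 0 of 478 B cells of the diaphragm libraries. The neutrophils were shallow, with a median of 1137 to 1292 UMIs by library. In mdx5cv quadriceps the share was 51.9% (exact interval 37.6 to 66.0), and the other 3 gates were too small to compare with it. The neutrophil gate was below 50 barcodes in those libraries, so no ratio was formed.

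Cxcr3 encodes the receptor of CXCL9 and CXCL10. T cells positive for it numbered 0 of 9, 17 of 123, 26 of 174 and 50 of 296, or 13.8%, 14.9% and 16.9% in the last 3. Thinned to 1000 UMIs per cell, the shares were 4.88%, 10.3% and 9.46%, so depth bears on these values. B cells had 0 of 230 and 1 of 478. The T cell level in mdx5cv diaphragm was 1.60 times that of WT diaphragm (interval 0.945 to 2.82) and was not called, where 11.7% of genes tested in that gate were. Natural killer cells, which are known to carry CXCR3, were positive in 8 of 42 in mdx5cv quadriceps.

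Among kept cells, myeloid cells held more Cxcr3 UMIs than T cells in 3 of 4 libraries: 85.7%, 20%, 78.0% and 61.1%, against 0%, 63.3%, 7.49% and 22.2% in T cells. Part of these lay in dendritic cells with Xcr1 or Clec9a, markers of the cross-presenting type, of which 6 of 22 in WT quadriceps, 69 of 180 (38.3%) in mdx5cv quadriceps and 22 of 72 (30.6%) in its diaphragm were positive. The dendritic cells without those markers were positive in 2 of 96 and 1 of 80 in mdx5cv. These Xcr1 or Clec9a cells were deep, with medians of 7454 and 8141 UMIs in the mdx5cv libraries, and thinned to 1000 UMIs the whole dendritic subset was positive in 5.80% and 2.63%. Macrophages were positive in 1.57%, 1.43%, 3.63% and 4.99%.

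Cxcr6 encodes the receptor of CXCL16. T cells held 6.45%, 46.9%, 58.6% and 64.1% of its 31, 563, 454 and 889 UMIs in kept cells, and ILC2 held 71%, 25.8%, 6.83% and 10.1%. The share of positive T cells was 1 of 9, 67 of 123 (54.5%), 104 of 174 (59.8%) and 176 of 296 (59.5%, exact interval 53.6 to 65.1), against 1 of 230 and 2 of 478 B cells. The median depths of the last 3 T cell gates were 2589, 1846.5 and 2123.5 UMIs. At 1000 UMIs per cell their shares were 35.0%, 42.5% and 44.6%. The T cell level was 796 CPM in WT diaphragm and 815 CPM in mdx5cv diaphragm, a ratio of 1.02 (interval 0.883 to 1.19), so a difference of 1.5-fold lies outside the interval. ILC2 were positive in 10 of 14, 75 of 155, 15 of 32 and 45 of 81, and their level in mdx5cv diaphragm was 1.17 times that of WT (interval 0.890 to 1.53).

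T cells with a UMI of Trdc, the constant region of the gamma-delta receptor, differed from the others. Of these, 60 of 65 (92.3%) in WT diaphragm, 63 of 73 (86.3%) in mdx5cv quadriceps and 102 of 116 (87.9%) in mdx5cv diaphragm held Cxcr6. Among T cells with no Trdc UMI the counts were 7 of 58 (12.1%), 41 of 101 (40.6%) and 74 of 180 (41.1%), so in this fraction both mdx5cv shares were above the WT diaphragm share. Median depths of the fraction without Trdc were 2161, 1968 and 2078.5 UMIs. For Cxcr3 the order of the fractions in mdx5cv was opposite, with 2 of 73 and 8 of 116 Trdc-positive cells against 24 of 101 (23.8%) and 42 of 180 (23.3%) of the rest. In WT diaphragm Cxcr3 was in 9 of 65 and 8 of 58. No test of these differences over animals was possible with 1 library a group.

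**Figure D4:**
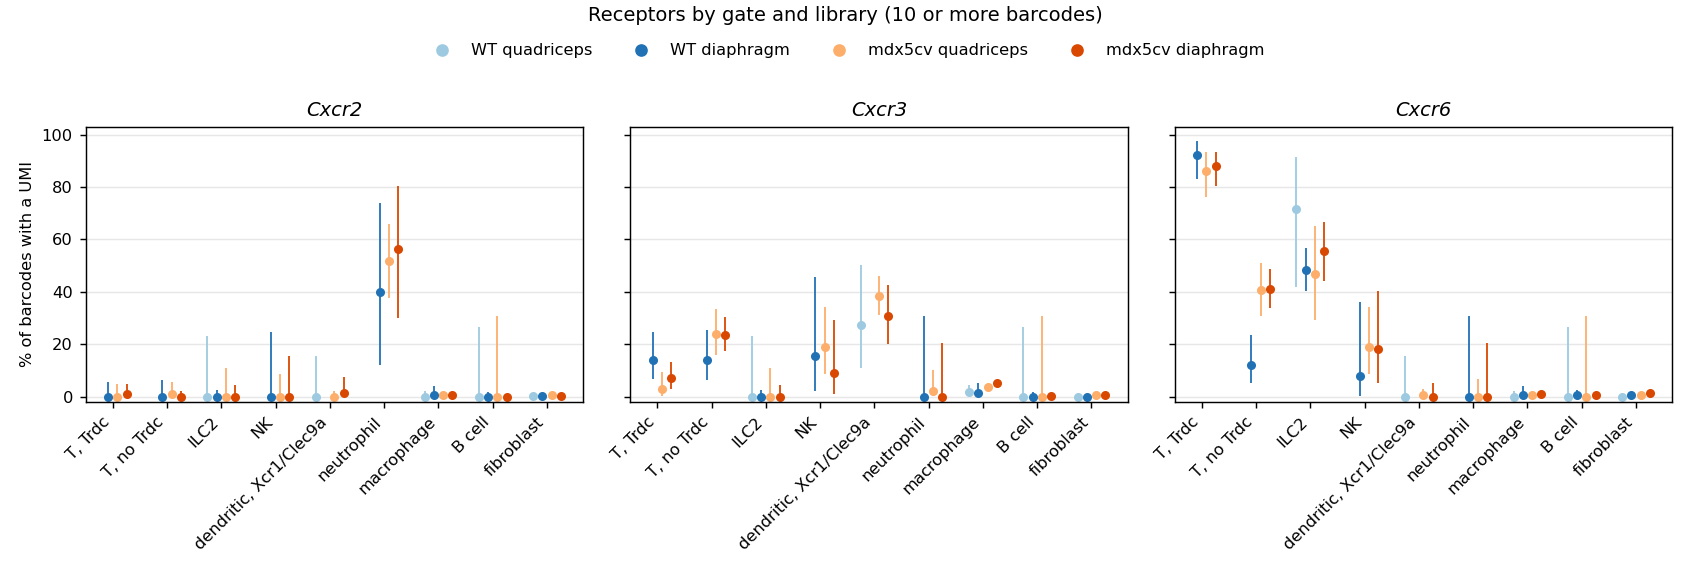
Percentage of cells with at least 1 UMI of each receptor by gate and library, for gates of 10 or more barcodes, with T cells split by a Trdc UMI; bars are exact 95% binomial intervals that cover counting error only. Cxcr2 was found in 51.9% of mdx5cv quadriceps neutrophils, and Cxcr6 in 92.3%, 86.3% and 87.9% of T cells with Trdc against 12.1%, 40.6% and 41.1% of those without.

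Other genes of these pathways were counted as lists. The interferon list of 20 genes holds genes of type I interferon and of interferon-gamma, so its counts do not separate these pathways. Of the 20, 18 passed 5 CPM in quadriceps fibroblasts, where mdx5cv exceeded WT for 13 and was below it for 1. Of the 16 that passed in diaphragm fibroblasts, mdx5cv was above WT for 8 and below it for 3. Over all genes the shares called higher and lower were 19.7% and 14.8% in quadriceps fibroblasts and 12.2% and 10.3% in diaphragm fibroblasts. Their median log2 ratios were 0.75 and 0.50, beside 0.06 and 0.07 over all genes. Irf8, a transcription factor of the interferon response that myeloid cells also express, was 8.20-fold and 4.49-fold higher in mdx5cv fibroblasts, at 25.2 and 17.1 CPM against 344 and 314 CPM in mdx5cv myeloid cells. The summed myeloid markers given above were higher in the same fibroblast gates, and their part in the Irf8 values was not tested. Jak2, a kinase of the interferon-gamma receptor, was 2.19-fold and 1.61-fold higher. Ifngr1, a chain of the interferon-gamma receptor, went the other way, from 423 to 231 CPM in quadriceps and from 295 to 194 CPM in diaphragm. In myeloid cells of quadriceps 9 of 19 were called, all above WT, and in those of diaphragm 11 of 18 were above WT and 2 below it, among them Irf7 (2.86-fold and 4.68-fold), which drives interferon-alpha genes. Over all genes 22.7% and 10.2% were called higher and lower in quadriceps myeloid cells, and 20.8% and 8.68% in those of diaphragm. Ifng itself had 0 UMIs in the WT myeloid gates and 29 and 31 in mdx5cv, or 0.813 and 1.88 CPM, under 5 CPM. The WT gates summed to 1698482 and 1350981 UMIs, against 35656155 and 16480601 in mdx5cv. The lower bounds of the mdx5cv to WT ratio were 0.351 and 0.649, so these counts show no difference in level.

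The NF-kappaB, interleukin-1, TNF and interleukin-17 list is read against the same shares over all genes. Quadriceps fibroblasts had 7 of 11 above WT and 0 below it, where 19.7% and 14.8% of all genes were called, while diaphragm fibroblasts had 1 of 12 above, near the 12.2% of all genes, and 4 below, where 10.3% of all genes were. Il1r1, the interleukin-1 receptor, was 2.28-fold and 2.18-fold higher in mdx5cv fibroblasts. Quadriceps myeloid cells had 5 of 11 above WT and 2 below it, and diaphragm myeloid cells had 1 of 12 above and 7 below, beside 22.7% and 10.2% of all genes in quadriceps and 20.8% and 8.68% in diaphragm. Tnf was 2.29-fold higher in WT in both muscles, and Il17ra was 3.30-fold and 2.36-fold higher in mdx5cv. Of the 2 proteases that release CXCL16, Adam17 was 2.55-fold and 1.68-fold higher in mdx5cv myeloid cells, and Adam10 was 1.42-fold (not called) and 1.72-fold.

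Of 4 other CXC ligands past 5 CPM in fibroblasts, 3 were higher and 1 lower in mdx5cv quadriceps, and 1 was higher and 1 lower in diaphragm, where 19.7% and 14.8% of all genes in quadriceps and 12.2% and 10.3% in diaphragm set the scale for every fibroblast list here. Cxcl13, the B cell attractant, was the lower one, with WT 3.85-fold and 2.32-fold above mdx5cv. Pf4, a chemokine gene of platelets and also a macrophage marker used here, was 4.16-fold and 1.68-fold higher in mdx5cv fibroblasts. Among the other and atypical receptors, 0 of 4 exceeded WT and 3 were below it in quadriceps fibroblasts, and 1 of 4 exceeded it and 3 were below it in diaphragm fibroblasts. The 3 were the atypical receptors, which take up chemokines without G protein signalling: Ackr3, which binds CXCL12, was at 503 and 499 CPM in WT against 65.5 and 59.6 CPM in mdx5cv, and WT exceeded mdx5cv 31.7-fold and 11.3-fold for Ackr2 and 3.31-fold and 4.55-fold for Ackr1. In myeloid cells 1 of 4 other CXC ligands was higher in mdx5cv and 1 lower in quadriceps. In diaphragm 1 of 6 was higher and 4 lower. Of the receptors, 1 of 2 was higher and 1 lower in either muscle. Over all genes 22.7% and 10.2% were called in quadriceps and 20.8% and 8.68% in diaphragm. Myeloid Cxcl12, which stromal cells make and which retains leukocytes, was 4.90-fold and 4.68-fold higher in WT, from 63 and 33 WT UMIs. Its WT levels were 37.1 and 24.4 CPM, beside 1529 and 1036 CPM in WT endothelial cells. The part of free RNA was not tested. Cxcr4, the receptor of CXCL12, was 2.13-fold and 1.56-fold higher in mdx5cv. The dissociation list had 0 of 12 higher and 8 and 12 lower in mdx5cv fibroblasts, and its part in the values above was not tested beyond the comparisons among cells low in it.

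Patterns across cell types were compared over 27 sums of a gate in a library with at least 50 barcodes, as Pearson correlations of log2 levels over 11333 genes, without a test, since the sums share libraries and depth. Cxcl5 was most like Lrrc15, a marker of activated fibroblasts (r = 0.94), P4ha3 (0.87) and Mmp3, a matrix protease (0.86). Cxcr6 was most like Trbc2 and Trbc1 (0.98 each), genes of the T cell receptor. These are also markers that defined the T cell gate, so the gating shaped their profile. Cxcr2 was most like Stfa1, Acod1 and Mirt2 (0.92 each). Only the neutrophils of mdx5cv quadriceps, 52 barcodes, formed a neutrophil sum, so the Cxcr2 values lean on that sum. Cxcl2 followed Cd200r1 (0.90), Lcp2 and Ptger2 (0.88 each), and Cxcr3 followed Cryba4 (0.90), Ipcef1 and Tns4 (0.89 each). Cxcl16 was most like Zmynd15 (0.87), which overlaps it on the opposite strand, so their reads may not be separate, then Mmp19 (0.86) and Ifi211 (0.83). The closest genes were less alike for Cxcl1 (Cebpd and Fgfr1, 0.77, and Larp6, 0.75), Cxcl9 (B3gnt3, Chsy3 and Ccdc102a, 0.77 each) and Cxcl10 (Tmem176a 0.79, Lamtor2 0.78 and Pigx 0.76).

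Free RNA was approximated by barcodes of 10 to 100 UMIs, which are too small to be cells. The level depended on this range, since Cxcl2 was at 898, 885, 598 and 890 CPM in barcodes of under 10 UMIs. In barcodes of 10 to 100 UMIs Cxcl1 was at 65.5, 222, 35.7 and 103 CPM, Cxcl2 at 184, 351, 273 and 300 CPM, and Cxcl9 at 30.0, 1, 29.4 and 48.6 CPM. Cxcl10 was at 21.1, 25.0, 86.0 and 58.2 CPM and Cxcl16 at 31.1, 39.0, 169 and 137 CPM. These levels, and those of Cxcl5 given below, are near or above those of several gates. Among these are fibroblast Cxcl2, Cxcl10 and Cxcl16, and fibroblast Cxcl1 in the diaphragms. Fibroblast Cxcl5 outside mdx5cv quadriceps and myeloid Cxcl9 outside WT diaphragm are also among them. The part of free RNA in those gates was not tested. B cells of the diaphragm libraries held 1 and 2 UMIs of Cxcl2 and 0 of Cxcl9 and Cxcl5. A few mdx5cv diaphragm B cells held Cxcl16, as given above, and B cell values of Cxcl1 and Cxcl10 are not given here. Of the receptors, Cxcr2 was at no more than 1.11 CPM in these barcodes, Cxcr3 at 3.33, 0, 4.20 and 1.74 CPM from 0 to 4 UMIs, and Cxcr6 between 1.11 and 8.68 CPM. For Cxcr3 in WT quadriceps that is above the 1.65 CPM over all kept cells, which rests on 21 UMIs.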

How the data were processed

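Per the submitters' processing notes, reads were processed with Cell Ranger 5.0.0 against mm10; the matrix headers name another Cell Ranger version, and filters on barcodes are not given in the sources used here. The deposited matrices hold raw UMI counts of every barcode, made by the authors, 1 matrix per library with 18837891 to 62780685 UMIs. The 9 genes and all lists were chosen with earlier results of these data known. Genes were matched by symbol.

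Kept barcodes joined the lineage with the most detected markers of 10, at least 3 and leading every other lineage by 2 or more; other barcodes, among them those of mixed lineage, were left unassigned (2.32% to 6.54% of a library). No doublet caller was run. Myeloid cells were split by 8 markers per subset. Counts were summed per gate and library and compared as ratios with exact conditional intervals, where both gates held at least 50 barcodes; a count of 0 was set to 3 UMIs for a bound. Level and share intervals were exact Poisson and Clopper-Pearson intervals of 95%. The ratio procedure was tested on simulated data. Splits by Dpp4 or Pi16, tenocyte and venous markers, Trdc, and Xcr1 or Clec9a were chosen after the data were seen. List members are named where called in 1 direction in both muscles, at most 4 per list and gate, plus Ifng, Adam10 and Ppbp, chosen after their values were seen. For each of the 9 genes, the 3 genes with the most similar profile are named among those with 20 CPM in a sum. Some genes that these rules select are not reported here. Alternatives were other limits on UMIs and mitochondrial share, a lead of 4 markers, leaving out cells with 3 or more markers of a second lineage, thinning, low-stress cells, a median-ratio scaling and no CPM minimum. Python 3.11.15, numpy 2.4.6, scipy 1.17.1, pandas 2.3.3 and matplotlib 3.10.9 were used.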

Additional observations from a re-analysis of the deposited data

Results flagged for a closer look

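Fibroblast Cxcl2 was 16-fold higher in mdx5cv than WT in quadriceps and 1.70-fold lower in diaphragm, so the 2 muscles had opposite directions; the difference was not tested over animals, the WT quadriceps value rests on 4 UMIs, and the diaphragm difference was not called under 3 of the alternatives.

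Myeloid Cxcl10 was 2.87-fold higher in mdx5cv than WT in quadriceps and 2.91-fold lower in diaphragm, again in opposite directions, and this difference was not tested over animals either. Within macrophages the quadriceps difference was smaller, at 0.45 on the log2 scale, and was not called.

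Cxcl5 was found in barcodes too small to be cells. In barcodes of 10 to 100 UMIs its level was 81.1 CPM in WT quadriceps, 70.1 CPM in WT diaphragm, 43 CPM in mdx5cv quadriceps and 105 CPM in mdx5cv diaphragm, above the 0.393, 1.26, 14.5 and 9.31 CPM over all kept cells of the same libraries. In WT quadriceps 127 of the 206 Cxcl5 UMIs (61.7%) lay in barcodes of under 10 UMIs and 5 in kept cells. Ppbp, a platelet chemokine gene, was at 4.44, 5, 4.20 and 0 CPM in barcodes of 10 to 100 UMIs. Over all kept cells of the same libraries Ppbp was at 0.708, 0.057, 4.743 and 1.999 CPM. Barcodes of under 10 UMIs held 46.4%, 68.2%, 4.44% and 4.21% of its 28, 22, 293 and 95 UMIs. The cells from which this Cxcl5 came are not identified by these values.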

How the results depend on the processing

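Across 394 recomputed member ratios, 295 stayed within the interval of the reported value, 98 moved outside it and 1 reversed. The reversal was myeloid Cxcl9 in diaphragm, at -0.15 on the log2 scale without barcodes holding 3 or more markers of a second lineage. A reversal was counted only where the reported value had been called, so ratios not called could change direction uncounted. Fibroblast Cxcl1 in quadriceps, not called, went from -0.26 to 0.86 on the log2 scale in low-stress barcodes. Counts of genes called in the fibroblast and myeloid gates, mdx5cv against WT, stayed within 1.5-fold under every alternative. That range allows single calls to be lost. In diaphragm, fibroblast Cxcl1, fibroblast Cxcl2 and myeloid Cxcl9 were each not called under some of the alternatives. In quadriceps, fibroblast ratios ranged from 0.820 to 1.82 for Cxcl1, 5.40 to 44.6 for Cxcl2, 29.6 to 179 for Cxcl5, 7.51 to 20.6 for Cxcl9 and 4.95 to 19.0 for Cxcl10, and myeloid ratios from 6.14 to 76.7 for Cxcl9, 2.58 to 13.9 for Cxcl10 and 2.88 to 7.90 for Cxcl16. In diaphragm, fibroblast ratios ranged from 0.306 to 0.705 for Cxcl1, 0.268 to 0.970 for Cxcl2, 9.37 to 28.0 for Cxcl5 and 33.5 to 63.0 for Cxcl9, and myeloid ratios from 0.0636 to 0.125 for Cxcl1, 0.0395 to 0.123 for Cxcl2, 0.901 to 4.89 for Cxcl9 and 0.166 to 0.581 for Cxcl10. The endothelial quadriceps count of 4 became 2 with a lead of 4 markers, 2 without second-lineage barcodes, 2 thinned and 2 in low-stress barcodes. The endothelial diaphragm count of 2 became 1 at no more than 5% mitochondrial UMIs, 0 thinned and 0 in low-stress barcodes. The count between the mdx5cv fibroblast gates, 1, became 3 at no more than 5% mitochondrial UMIs, 2 without second-lineage barcodes, 2 thinned and 3 with no CPM minimum. The Cxcr6 share of mdx5cv diaphragm T cells was 66.9% at 2000 UMIs or more and 44.6% thinned, the Cxcr3 share was 25.6% at no more than 5% mitochondrial UMIs and 9.46% thinned, and the Cxcr2 share of mdx5cv quadriceps neutrophils was 100% at 2000 UMIs or more, where 1 barcode was left. The cause of these changes was not tested, other than thinning, which leaves fewer UMIs. No paired analysis was possible because each group is 1 library. Depth limits the WT quadriceps T cell gate (9 barcodes), the WT diaphragm endothelial gate (78) and every neutrophil gate.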
